A study of Mus musculus with 12 samples.

Results

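The loci described here are 10 genes of the mouse genome whose surroundings held several stretches of chromatin more open in grafted brain macrophages than in the host microglia of the same brains. They are Trps1, Mdfic, Cmah, Dach1, Hs3st1, Stap1, Gm9733, C630043F03Rik, Col19a1 and G530011O06Rik. Their peaks were all those whose nearest annotated gene is one of the 10, which gave 119 of 60288 peaks in the table of untreated mice and 137 of 54953 in the table of mice given lipopolysaccharide (LPS), out of 16966 genes with a peak. The 10 genes were chosen by the difference in tags between grafted and host cells, in both tables, so that difference is given for them as a description, with no test.

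ATAC-seq, which tags open DNA with a transposase, was run on 12 libraries that form 4 groups of 3. All samples are labelled C57BL/6J and WT. The host mice received 950 cGy of irradiation and then bone marrow, which the authors describe as congenic WT marrow with CD45.1 alleles. The labels give an interval of 3.5 or 9 months after transfer, and the authors place the chimeras sorted for chromatin profiling at 9 months. Mice 1, 2 and 3 were injected with LPS, a bacterial endotoxin, at 2.5 mg/kg and killed 12 h later, and mice 4, 5 and 6 stayed untreated. From each brain, CD45.1 cells, the progeny of the graft, and CD45.2 cells, the host microglia, were sorted from the CD45int CD11b+ Ly6C- Ly6G- gate. The groups are CD45.1 untreated, CD45.2 untreated, CD45.1 LPS and CD45.2 LPS, and all 4 share the irradiation and transplant. Host cells were irradiated and grafted cells were not, so origin and irradiation cannot be told apart, and in sorted bulk cells neither can a smaller share of cells with an open site and less opening per cell.

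Microglia arise from yolk sac precursors and grafted macrophages from bone marrow, and both use a shared set of macrophage transcription factors at different enhancers. An enhancer is a stretch of DNA that raises the transcription of a gene which may lie far away, and in active cells it is usually open to the transposase. A peak is named here after the nearest start site, which need not be the gene it acts on. Several members have known roles: Trps1 and Dach1 encode transcriptional regulators, Mdfic a protein that binds and restrains transcription factors, Stap1 an adaptor in kinase signalling, Cmah and Hs3st1 enzymes that modify sugars at the cell surface and Col19a1 a collagen.

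Untreated libraries held 8392877.5 to 9107770 tags and LPS libraries 2966364 to 6556594.5, with medians of 16 to 35 and 8 to 23.5 tags per merged peak, so single peaks after LPS carry more counting error. In CD45.2 of mouse 4 (untreated), 9.3% of tags fell in the library's own peaks, against 13.4% to 27.24% elsewhere, and without that library 64 untreated member peaks were called in place of the 65 given next. Promoter peaks of microglial markers were open in every library, though Sall1 and Slc2a5 had none. Promoter tags of 8 markers of border and monocyte-derived macrophages, of which 4 had a promoter peak, summed to 31.6 to 35.6 CPM (scaled by all tags of a library) in CD45.1 and 3.24 to 9.06 in CD45.2 of untreated mice. Apoe, Clec12a and Ms4a7 were called higher in CD45.1 and Mrc1 was not. Cd163, Lyve1, F13a1 and Ccr2 had no promoter peak. After LPS, with a promoter peak at 5 of the 8, the ranges were 29.2 to 37.1 and 8.76 to 12.4, and only Apoe and Clec12a were called. Promoter tags of 6 neutrophil markers were 1.24 to 3.31 in CD45.1 and 0.384 to 0.815 in CD45.2 of untreated mice. Only 1 of the 6 had a promoter peak there, with none at S100a8, S100a9, Ly6g, Ngp or Camp. After LPS 3 had a promoter peak, again without Ly6g, Ngp and S100a9, and the tags were 15.9 to 30.3 and 5.39 to 22.1. The neutrophil sums were thus higher after LPS, but over more promoters, so the size of that rise cannot be read from them. The 6 lymphocyte markers had no promoter peak in any library. Levels of the border and monocyte-derived macrophage markers, and neutrophil levels in untreated mice, differed with origin as the member peaks did. Promoter tags of 6 markers shared by microglia and macrophages overlapped, with 46.7 to 62.1 CPM in CD45.1 and 35.2 to 72.3 in CD45.2 of untreated mice. After LPS these were 30.3 to 47.6 and 28.3 to 42.1. The part of all these levels in the member results was not tested.

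Of the 119 untreated member peaks, 113 had a count over 10 in at least 1 library and were fitted, and 6 were not. A peak counts as called where DESeq2 gave an adjusted p under 0.01 and a difference of more than 4-fold. By that limit 65 member peaks were higher in CD45.1 and 0 in CD45.2, beside 3.78% of all 59170 peaks called higher in CD45.1, the contrast the members were chosen by. The mean was higher in CD45.1 at 109 of the 113, and at 98 every CD45.1 library lay above every CD45.2 library, as at 17.8% of all peaks. The median log2 difference of the members was 2.71 (CD45.1 over CD45.2), also with the peaks that held no CD45.2 tag set to their lower bound, and 0.0008 over all peaks.

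After LPS, 110 of 137 member peaks were fitted and 48 were called higher in CD45.1 and 0 in CD45.2, beside 1.78% of all 49180 peaks. Without 1 library the 48 fell to between 23 (CD45.2 of mouse 2 or 3) and 39, with 28 without CD45.1 of mouse 3, and a mean count of at least 20 left 13, and 26 of the 65 in untreated mice. The mean was higher in CD45.1 at 109 and the libraries did not overlap at 94, against 14.1% of all peaks. The median log2 difference was 2.5, or 2.48 with the peaks that held no CD45.2 tag set to their lower bound, against −0.0077 over all peaks. Just inside the 4-fold limit lay the Trps1 peak at +191.1 kb from the start site in untreated mice (93.2 ± 7.46 against 20.8 ± 8.21 normalized tags, SD, n = 3) and just outside it the Gm9733 peak at +137.8 kb (32.7 ± 3.12 against 8.4 ± 0.433). After LPS these were the Trps1 peak at +485.0 kb (28.1 ± 15.0 against 5.2 ± 3.08) and the Cmah peak at −8.1 kb (24.2 ± 2.51 against 6.64 ± 0.609). Another 12 untreated and 8 LPS member peaks passed the adjusted p but not the fold.

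**Figure D1:**
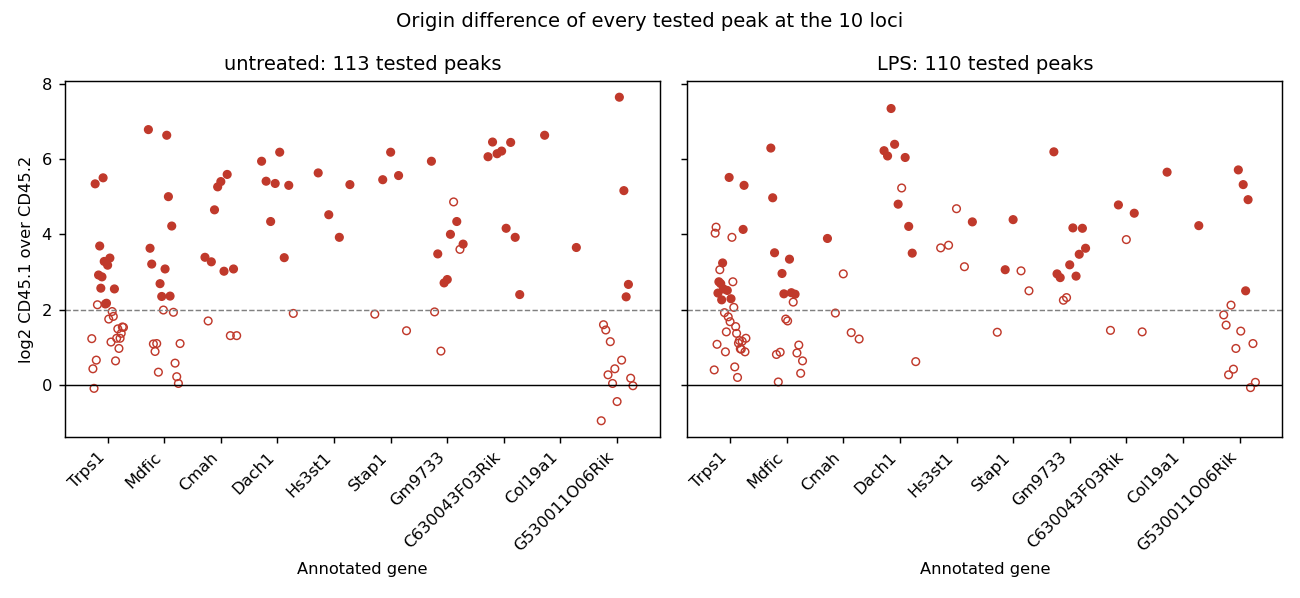
Each point is 1 tested peak at 1 of the 10 loci, with its log2 difference of CD45.1 over CD45.2 on the vertical axis, in untreated mice (left, 113 peaks) and after LPS (right, 110 peaks). Filled points are called, the dashed line marks 4-fold, and few points lie below 0, most of them at G530011O06Rik.

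The called peaks were mostly away from promoters, as were all peaks, of which 22.2% (untreated) and 22.7% (LPS) lay at promoters. In untreated mice 2 lay at promoters, of 7 member peaks there, 28 in introns and 33 between genes, and 30 lay inside the gene they are named after. Of the 65, 60 appeared in no peak list of a CD45.2 library and 41 in all 3 lists of CD45.1. Their median distance from the start site was 48.4 kb, against 29.05 kb for the other member peaks. Some called peaks lay side by side, with 22 of 65 within 2 kb of another, in 9 groups. The loci were chosen for holding several such peaks, and no share over all peaks was taken for comparison. After LPS 3 called peaks lay at promoters (of 8), 15 in introns and 28 between genes, and 22 of 48 had another within 2 kb. In annotated repeats lay 10 of 65 and 4 of 48, against 11.4% and 11.6% of all peaks in the same tables.

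Trps1, on chromosome 15 (chr15:50486307-50721587, mm9, minus strand), encodes a repressor with a GATA-type zinc finger. It had the most peaks of the 10, 29 in untreated mice over 1037.1 kb, of which 12 were called. The sequence of the called peak with the smallest adjusted p in untreated mice is shown first for each locus, on the plus strand of mm9. For Trps1 it lies in an intron at +191.1 kb, chr15:50529383-50529540, and is printed with no capitals because no motif searched lies whole within these bases, though the 200 bases around its centre hold a RUNX match.
Trps1 +191.1 kb: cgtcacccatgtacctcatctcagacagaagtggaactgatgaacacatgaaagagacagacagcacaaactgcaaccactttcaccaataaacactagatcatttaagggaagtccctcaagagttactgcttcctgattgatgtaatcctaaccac
That peak held 85.8, 93.1 and 101 normalized tags in CD45.1 of untreated mice 4, 5 and 6 and 18, 14.3 and 30.0 in CD45.2. The host cells were open there too, at a lower level, and the libraries did not overlap. The Trps1 promoter itself, at −0.1 kb, was open in both populations, with 112, 110 and 96.9 tags in CD45.1 and 50.0, 40.6 and 36.5 in CD45.2 (log2 difference 1.37, SE 0.23). The peak with the most tags, in the intron at +18.7 kb, held 129, 156 and 118 against 67.2, 62.7 and 75.5 (0.97, SE 0.20). The peak at +780.0 kb held 84.0, 100 and 73.5 tags against 107, 79.0 and 92.5 (−0.09, SE 0.21), the only untreated Trps1 peak with a higher CD45.2 mean.

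Of the 12 called Trps1 peaks, 7 lay beyond the end of the gene, between +239.1 and +731.9 kb. The peak at +527.2 kb held 54.1, 40.2 and 41.9 tags in CD45.1 and 2.46, 4.26 and 2.43 in CD45.2 (log2 difference 3.69, SE 0.55). The peak at +439.3 kb held 43.4, 67.1 and 43.6 against 6.55, 4.26 and 9.33 (2.87, SE 0.45). In both the lowest CD45.1 library was far above the highest CD45.2 library. In the intron at +109.2 kb, chr15:50611310-50611416, the counts were 42.4, 43.4 and 41.9 against 3.28, 2.32 and 6.09 (3.37, SE 0.52). Its sequence is shown because this peak is returned to after LPS, with a CEBP match in capitals.
Trps1 +109.2 kb: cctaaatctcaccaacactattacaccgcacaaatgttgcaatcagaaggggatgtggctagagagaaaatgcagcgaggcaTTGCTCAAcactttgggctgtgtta
After LPS 41 Trps1 peaks were listed, 35 fitted and 11 called. The peak at +109.2 kb remained called, with 28.7, 48.9 and 49.5 tags against 12.3, 4.80 and 9.20 (2.29, SE 0.44). Upstream of the start site, peaks at −82.7 kb (13.3, 21.5 and 30.2 against 2.63, 0 and 1.19) and at −107.2 kb (3.23, 6.52 and 10.9 against 0.876, 0.436 and 0) were called after LPS, and the untreated table lists no Trps1 peak there.

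Mdfic, on chromosome 6 (chr6:15670661-15752169, plus strand), had 20 untreated peaks, of which 10 were called, and 21 after LPS, of which 18 were fitted and 8 called. The sequence of the intron peak at +38.0 kb, chr6:15708575-15708710, has a match to the macrophage factor PU.1 and to AP-1, the dimer of Fos and Jun proteins, in capitals.
Mdfic +38.0 kb: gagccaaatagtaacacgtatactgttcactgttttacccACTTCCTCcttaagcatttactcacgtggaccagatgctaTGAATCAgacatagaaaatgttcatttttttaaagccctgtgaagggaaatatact
In untreated mice this peak held 111, 122 and 107 normalized tags in CD45.1 and 4.92, 4.26 and 1.62 in host cells (log2 difference 5.00, SE 0.49). It was near background in the host and among the strongest in the graft. After LPS the counts were 109, 119 and 89.6 against 10.5, 8.72 and 11.9 (3.34, SE 0.34), on a separate scale. The promoter at 0 kb differed far less, with 26.1, 21.9 and 14.7 tags in CD45.1 and 5.74, 8.90 and 13 in CD45.2 of untreated mice (1.09, SE 0.50). The Mdfic peak with the most tags, between genes at +125.5 kb, held 121, 127 and 93.7 against 125, 101 and 112 (0.04, SE 0.19), and its libraries overlapped. Far upstream at −257.1 kb, by contrast, CD45.1 held 37.3, 48.8 and 33.2 tags and CD45.2 1.64, 0 and 0.406, a ratio of 63.0 (counting interval 17.1 to 526), and this peak was also called after LPS. The untreated Mdfic peak at −5.5 kb has 1 near-identical copy elsewhere in the genome, so its reads cannot be placed with certainty.

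**Figure D2:**
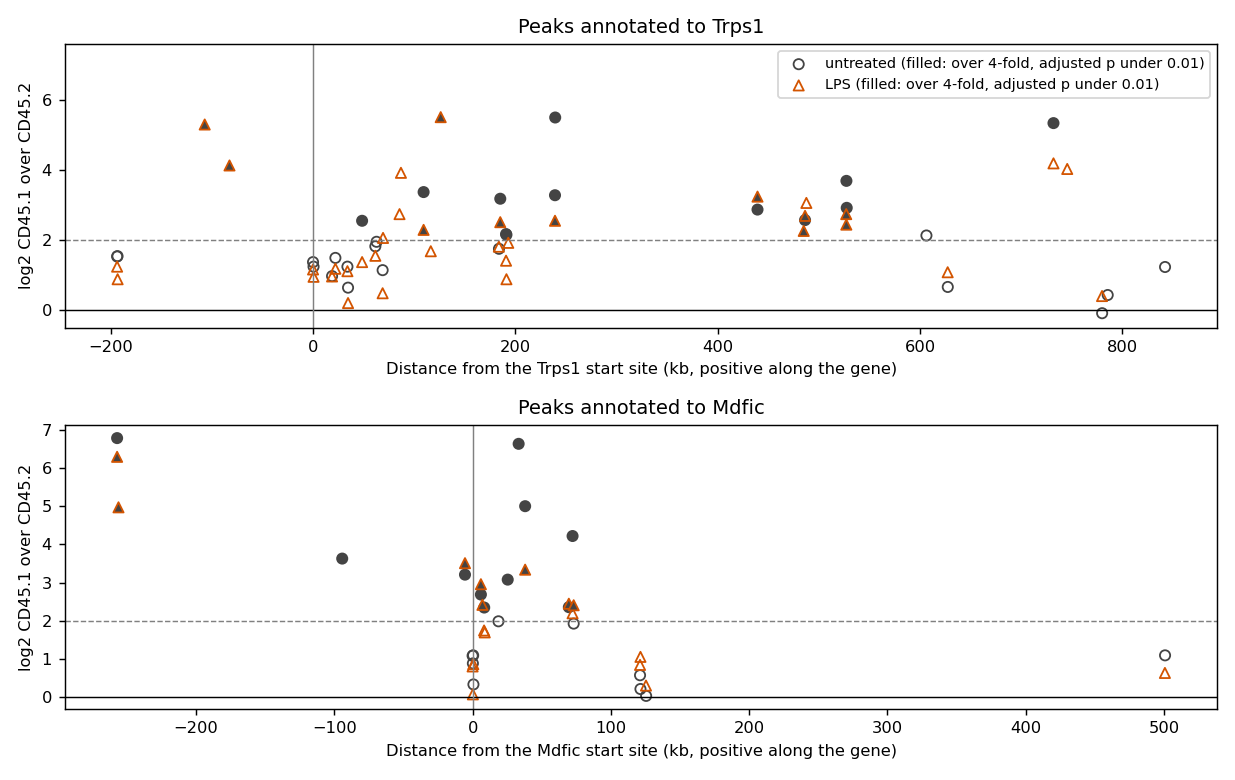
Log2 difference of CD45.1 over CD45.2 for each tested peak against its distance from the start site in kb, for Trps1 (top) and Mdfic (bottom), untreated as circles and LPS as triangles, filled where called. Peaks within 1 kb of either start site lie below the dashed 4-fold line, and called Trps1 peaks reach from −107.2 to +731.9 kb.

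Cmah encodes the hydroxylase that turns the sialic acid Neu5Ac into Neu5Gc, a sugar of the cell surface. It lies on chromosome 13 (chr13:24419289-24569154, plus strand), and 10 of its 12 untreated peaks lay inside the gene. Of the 12, 11 were fitted and 8 called. The called peak with the smallest adjusted p, in an intron at −21.9 kb from the nearest of the gene's start sites, chr13:24485002-24485139, is printed with its MEF2 and GATA matches in capitals because it also changed after LPS.
Cmah −21.9 kb: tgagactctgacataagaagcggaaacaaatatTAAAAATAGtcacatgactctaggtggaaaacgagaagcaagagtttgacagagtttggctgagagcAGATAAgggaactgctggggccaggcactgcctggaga
It held 47.1, 52.9 and 46.8 normalized tags in CD45.1 and 1.64, 2.32 and 0 in the host cells of untreated mice (log2 difference 5.26, SE 0.79). The Cmah peak with the most tags, at +29.8 kb, was open in both, with 49.4, 45 and 57.7 against 19.7, 12.8 and 29.6 (1.31, SE 0.35). The peak nearest to a start site, at −1.7 kb, held 7.46, 14.6 and 29.9 in CD45.1, a wide spread, and 0, 0 and 0.812 in CD45.2. After LPS 9 Cmah peaks were listed, 5 fitted and 1 called. That peak, at −12.5 kb, held 8.89, 16.3 and 14.6 against 1.75, 0 and 1.19 tags, a ratio of 14.4 (counting interval 4.59 to 73.0).

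Hs3st1, which encodes a sulfotransferase that completes the antithrombin-binding site of heparan sulfate, was the member with the largest ratio of summed tags in untreated mice. It lies on chromosome 5 (chr5:40005174-40146714, minus strand), and its 4 untreated peaks, all called, lay between the promoter and +13.7 kb. The promoter peak, at −0.1 kb, chr5:40035887-40036017, is printed because few members differed at a promoter.
Hs3st1 −0.1 kb: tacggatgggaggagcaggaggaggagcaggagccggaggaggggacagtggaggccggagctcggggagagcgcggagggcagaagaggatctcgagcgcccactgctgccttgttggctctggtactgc
It held 205, 201 and 130 normalized tags in CD45.1 and 6.55, 5.81 and 1.62 in CD45.2 (log2 difference 5.32, SE 0.44). After LPS it held 76.4, 110 and 119 against 5.25, 5.67 and 4.45 (4.33, SE 0.44). The promoter was thus close to closed in the host in both conditions. The intron peak at +13.7 kb held 70.9, 95.4 and 70.8 against 1.64, 0.387 and 3.25 in untreated mice. Of 5 Hs3st1 peaks after LPS only the promoter was called. Of the others, the peak at +13.6 kb held 30.7, 20.9 and 5.19 against 2.63, 1.74 and 0.297 tags, a wide spread in CD45.1.

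Stap1 encodes an adaptor with PH and SH2 domains that docks on receptor kinases, among them the receptor of the macrophage growth factor CSF1. It lies on chromosome 5 (chr5:86500771-86533018, plus strand). Of its 5 untreated peaks 3 were called, all in introns. The peak at +7.1 kb, chr5:86507839-86507946, holds AP-1, CEBP and MEF2 matches within its 108 bases, shown in capitals from left to right.
Stap1 +7.1 kb: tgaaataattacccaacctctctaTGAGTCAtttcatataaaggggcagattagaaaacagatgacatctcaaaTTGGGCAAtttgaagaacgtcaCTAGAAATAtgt
It held 61.6, 52.9 and 94.2 normalized tags in CD45.1 and 0, 0.774 and 3.65 in the host cells of untreated mice (log2 difference 5.45, SE 0.72). After LPS it was the strongest Stap1 peak, with 125, 145 and 126 against 9.63, 10.5 and 22.6 (3.06, SE 0.31). The peak at +13.4 kb held 52.2, 56.6 and 104 against 2.46, 0.774 and 0 in untreated mice, a ratio of 109 (counting interval 29.7 to 903), the highest CD45.1 library again being that of mouse 6. The promoter, at 0 kb, differed less, with 44.8, 61.2 and 57.7 against 15.6, 10.4 and 18.3 (1.88, SE 0.36). A pair of LPS peaks at +47.0 and +47.1 kb lies in the neighbouring gene Uba6.

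Dach1 encodes a transcriptional cofactor of the dachshund family, which works with Eya proteins. It lies on chromosome 14 (chr14:98186066-98568984, minus strand). Of 9 untreated peaks 8 were fitted and 7 called, and of 13 after LPS 10 were fitted and 8 called. The promoter, at −0.1 kb, held 20.1, 32.9 and 21.2 normalized tags in CD45.1 and 0.819, 1.94 and 0 in CD45.2 of untreated mice, a ratio of 26.1 (counting interval 8.59 to 129). After LPS it held 19.4, 18.9 and 13.7 against 4.38, 0 and 1.78 (log2 difference 3.50, SE 0.84). In the first intron at +2.4 kb CD45.1 held 23.3, 28.8 and 26.1 tags and CD45.2 0, 0 and 0.812 in untreated mice. The Dach1 peak with the most tags in untreated mice lay elsewhere, past the end of the gene at +409.7 kb.

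That site brings together Dach1, Gm9733 and C630043F03Rik. Gm9733, a predicted protein-coding gene on chromosome 3 (chr3:15296551-15332302, minus strand), had 11 untreated peaks, of which 7 were called, and 13 after LPS, of which 11 were fitted and 9 called. C630043F03Rik, a long noncoding RNA gene on chromosome 4 (chr4:71862382-71876386, plus strand), had 8 untreated peaks, all called, and 8 after LPS, of which 5 were fitted and 2 called. All of its peaks lay outside the gene, between +29.8 and +224.3 kb. The peaks with the smallest adjusted p at Dach1 (chr14:98159141-98159408) and Gm9733 (chr3:15285015-15285175), and at C630043F03Rik (chr4:72072449-72072598), resemble one another and are shown together, with a MAF match of the Dach1 peak in capitals.
Dach1 +409.7 kb: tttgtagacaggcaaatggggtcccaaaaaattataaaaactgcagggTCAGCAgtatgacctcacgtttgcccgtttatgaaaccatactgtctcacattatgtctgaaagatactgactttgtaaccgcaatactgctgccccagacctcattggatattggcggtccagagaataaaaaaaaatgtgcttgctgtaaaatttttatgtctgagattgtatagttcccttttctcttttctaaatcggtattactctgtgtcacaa
Gm9733 +47.2 kb: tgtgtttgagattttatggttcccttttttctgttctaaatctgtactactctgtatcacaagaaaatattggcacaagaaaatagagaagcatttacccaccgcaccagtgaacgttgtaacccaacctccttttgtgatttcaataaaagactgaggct
C630043F03Rik +210.2 kb: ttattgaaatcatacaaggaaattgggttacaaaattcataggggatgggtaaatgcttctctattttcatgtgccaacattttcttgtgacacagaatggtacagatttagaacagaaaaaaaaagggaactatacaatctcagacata
The Gm9733 and C630043F03Rik peaks aligned at 84.667% identity over 150 bases, and the Dach1 and C630043F03Rik peaks at 86.154% over 65 bases. A neighbouring peak of each trio, at +410.1 kb for Dach1, +47.7 kb for Gm9733 and +210.7 kb for C630043F03Rik, aligned in the same way at 86.486% to 93.269%. So 6 of the untreated member peaks at 3 loci on 3 chromosomes share sequence, either among the printed peaks or among their neighbours. With at least 50 aligned bases required, none of the printed peaks aligned to a neighbouring one. Nor did the printed Dach1 and Gm9733 peaks align to each other under the limits used. None of the 6 is annotated as a repeat in the deposited tables, yet each matched 57 to 71 places in the mm9 genome.

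In untreated mice the Dach1 peak at +409.7 kb held 97.5, 101 and 86.6 normalized tags in CD45.1 and 1.64, 2.32 and 2.43 in CD45.2 (log2 difference 5.41, SE 0.60). The Gm9733 peak at +47.2 kb held 128, 136 and 108 against 8.19, 3.48 and 7.71 (4.34, SE 0.39). The C630043F03Rik peak at +210.2 kb held 43.8, 55.7 and 58.3 against 6.55, 2.32 and 2.03 (4.16, SE 0.57). All 3 were well above the host in every library. Searching all tested untreated peaks with the sequences of these member peaks found 14 more that aligned, none a member and none annotated as a repeat. Of the 14, 13 were called higher in CD45.1. They lay nearest to Dppa3, Fzd7, Ipo5, Nmbr, Stard13, Tpp2 and Vmn1r90, and 3 of the 13 held no CD45.2 tag. The exception, in an intron of Fer, had a log2 difference of 1.28. After LPS 3 member peaks shared sequence and 8 others aligned, of which 4 were called, near Fzd7, Ipo5, Nmbr and Tpp2. This likeness was found after the values had been seen, and since members were chosen for the difference it is given as a description. Whether reads were placed at the wrong copy was not tested.

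**Figure D3:**
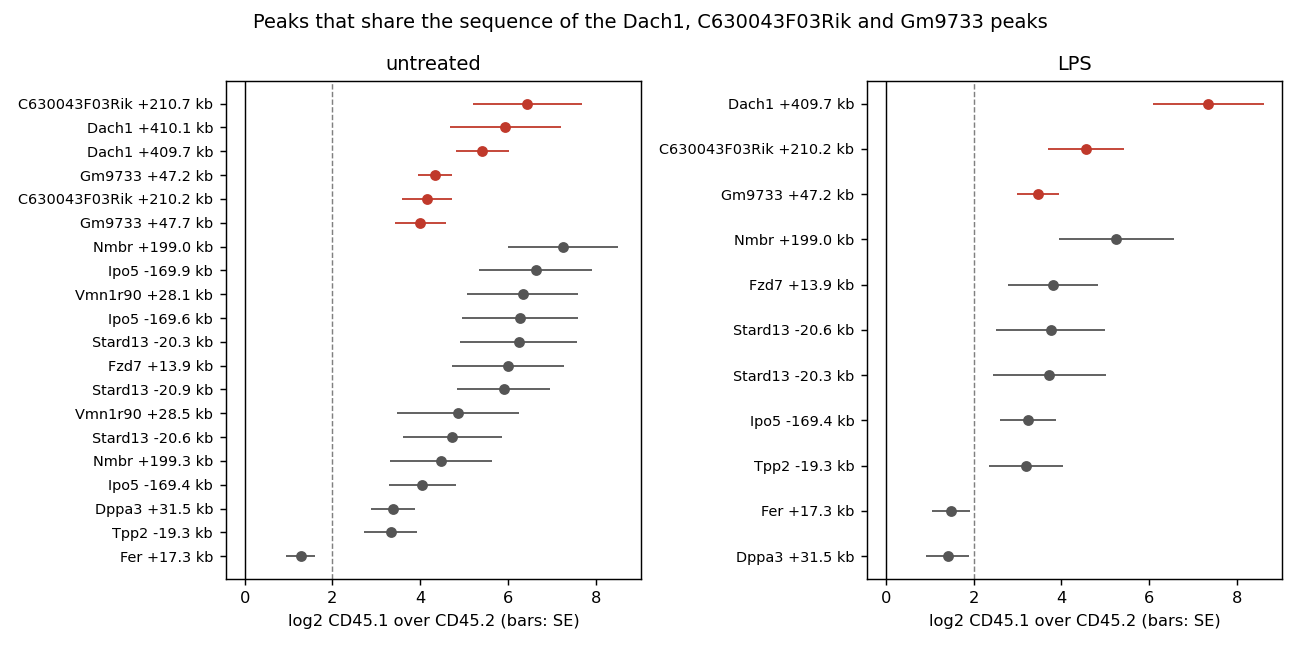
Log2 difference of CD45.1 over CD45.2 (points, bars SE) of the member peaks that share sequence (red) and of the other tested peaks that align to them (grey), untreated on the left and LPS on the right. All lie above 0, and in untreated mice all but the Fer peak lie past the dashed 4-fold line.

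Elsewhere at these loci, the C630043F03Rik peak at +178.4 kb held 56.0, 79.4 and 75.7 tags in CD45.1 and 0, 0.774 and 1.22 in CD45.2 of untreated mice, a ratio of 73.1 (counting interval 24.7 to 357). At +224.3 kb CD45.1 and CD45.2 held 55.5, 60.2 and 65.9 against 10.7, 10.4 and 13 (log2 difference 2.40, SE 0.36), its smallest called difference, and after LPS this peak was not called (1.41, SE 0.41). A few peaks held no CD45.2 tag at all. With 3 tags over the 3 libraries as the floor, CD45.1 was at least 13-fold higher at C630043F03Rik +31.1 kb, at least 16.6-fold at its +98.2 kb peak and at least 11.9-fold at Gm9733 +152.7 kb in untreated mice. After LPS the same held for Dach1 at +484.9 kb (at least 15.1-fold) and +409.0 kb (at least 16.9-fold) and Trps1 at +126.1 kb (at least 9.19-fold). Counts this low limit the statement to the depth reached, and the floor covers counting error only.

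Col19a1 encodes a collagen that associates with fibrils, and lies on chromosome 1 (chr1:24268729-24594311, minus strand). It had 2 untreated peaks and 4 after LPS, and 2 were called in each. One is in an intron at +117.7 kb, with 18.7, 21 and 15.2 tags in CD45.1 and none in CD45.2 of untreated mice (at least 19.1-fold). The other, between genes at −25.3 kb, chr1:24619528-24619643, was the strongest of all the members. It overlaps an exon of Gm10222 and lies in a nuclear copy of mitochondrial DNA, 4654 bases long (chr1:24618374-24623027) and 99.936% identical to bases 6390 to 11042 of the mitochondrial genome. Both sequences are printed, the mitochondrial one from its minus strand at bases 9774 to 9888, with the run of T in capitals.
Col19a1 −25.3 kb: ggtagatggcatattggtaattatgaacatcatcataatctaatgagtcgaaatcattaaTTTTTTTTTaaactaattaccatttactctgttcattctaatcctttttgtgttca
Col19a1 mitochondrial match: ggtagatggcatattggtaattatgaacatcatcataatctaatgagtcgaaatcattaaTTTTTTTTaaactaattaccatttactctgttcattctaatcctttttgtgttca
The pair differs by the length of that run alone, 9 in the nuclear copy and 8 in the mitochondrial genome, where it lies in the transfer RNA gene mt-Tr.

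The −25.3 kb peak held 366, 330 and 557 normalized tags in CD45.1 and 24.6, 13.9 and 60.9 in the host cells of untreated mice (log2 difference 3.65, SE 0.63). After LPS it held 210, 268 and 331 against 24.5, 12.2 and 11.3 (4.23, SE 0.30). The CD45.1 libraries were all far above the CD45.2 libraries, which varied among themselves. Reads from the mitochondrial genome and from its nuclear copy cannot be told apart here except across the run, which the deposited counts do not show. The other merged peak within a long nuclear copy of mitochondrial DNA, near Gad2 in a copy 97.362% identical, had log2 differences of −0.14 (SE 0.34) and −0.45 (SE 0.33).

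G530011O06Rik is a long noncoding RNA gene near the end of chromosome X (chrX:166412975-166416849, minus strand), and most of its peaks lie within the larger gene Mid1. It had 19 untreated peaks, 15 fitted and 4 called, and 16 after LPS, 14 fitted and 4 called. The peak at −19.3 kb, chrX:166436002-166436297, is printed in full because a long stretch of it occurs again within the peak.
G530011O06Rik −19.3 kb: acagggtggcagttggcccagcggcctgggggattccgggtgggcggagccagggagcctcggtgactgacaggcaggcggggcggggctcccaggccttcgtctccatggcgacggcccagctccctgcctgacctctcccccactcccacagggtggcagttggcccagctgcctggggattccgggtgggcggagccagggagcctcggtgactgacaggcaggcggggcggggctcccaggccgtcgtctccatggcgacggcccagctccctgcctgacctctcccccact
It held 213, 200 and 250 normalized tags in CD45.1 and 37.7, 33.3 and 33.7 in the host cells of untreated mice (log2 difference 2.67, SE 0.21), and 89.8, 121 and 86.8 against 1.75, 5.23 and 2.37 after LPS (4.92, SE 0.51). Within 1.2 kb of it lay 2 further called peaks, among them that at −18.3 kb with 103, 62.5 and 104 against 0, 5.03 and 1.22 tags. At −12.3 kb CD45.1 held 75.1, 66.6 and 75.1 tags and CD45.2 0, 0.387 and 0.812, a ratio of 113 (counting interval 30.8 to 937). At the promoter of G530011O06Rik the populations overlapped, with 140, 117 and 86.0 tags against 91.8, 94.4 and 98.6 (0.27, SE 0.21). This locus is also the one where CD45.2 means were higher at some peaks, 3 of 15 fitted untreated peaks, among the 4 of all members. Peaks here include near-identical copies, with 2 elsewhere for the −12.3 kb peak and 321 for that at −233.3 kb, so their reads cannot be placed with certainty. Over all 1263 tested peaks of chromosome X the median log2 difference was 0.0 in untreated mice, and over 1034 peaks it was 0.12 after LPS. These medians describe the chromosome and not the placing of reads at this locus.

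Summed over all its peaks, each locus was higher in every CD45.1 library than in every CD45.2 library, in both tables. In untreated mice the sums ranged from 235 to 355 normalized tags in CD45.1 and from 7.75 to 10.6 in CD45.2 at Hs3st1, a ratio of means of 34.8. The ratios at Dach1 (22.8), C630043F03Rik (16.1) and Col19a1 (13.2) followed, then Stap1 (9.13), Gm9733 (8.68) and Cmah (6.39). The loci with the most peaks had the smallest ratios, 2.61 at Trps1 (1260 to 1360 against 417 to 575), 2.48 at Mdfic (679 to 774 against 248 to 335) and 2.24 at G530011O06Rik (1050 to 1180 against 455 to 591). Their sums include peaks open in both populations, whose part in the ratios was not tested. After LPS the ratios ranged from 2.57 at Trps1 to 17.6 at Col19a1.

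**Figure D4:**
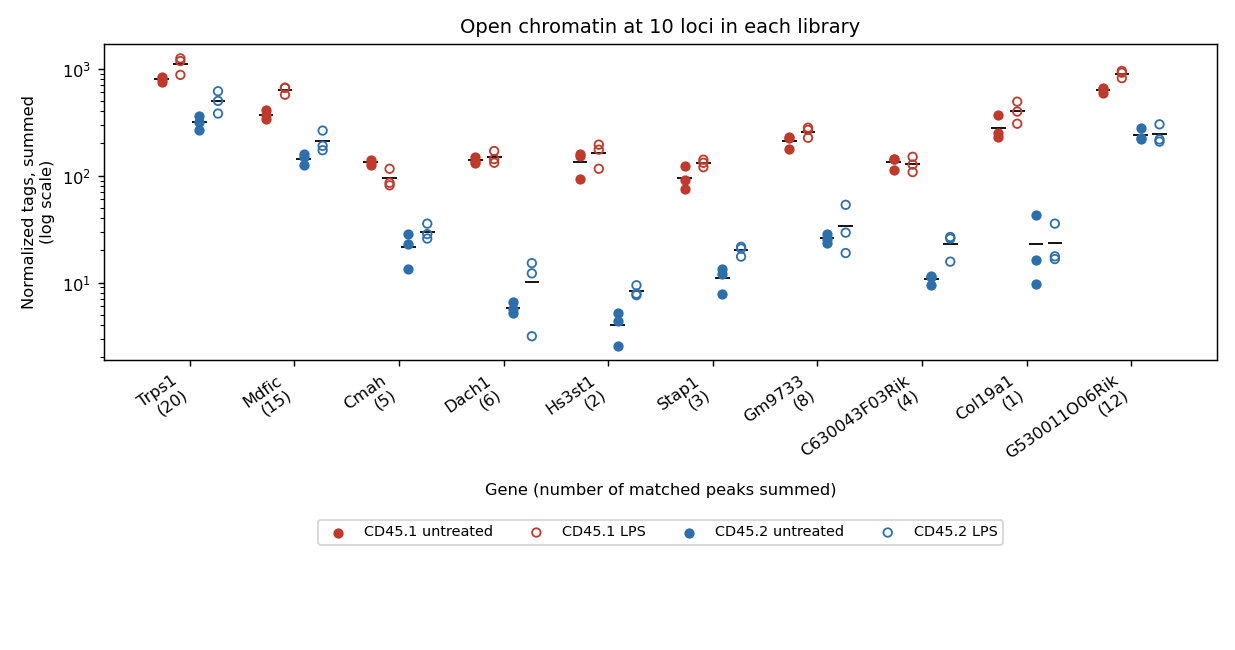
Normalized tags of the peaks matched between both tables, summed per locus (log scale, number of peaks in brackets), for each of the 12 libraries. Points are libraries, filled for untreated and open for LPS, bars are group means, and CD45.1 (red) lies above CD45.2 (blue) at every locus in both conditions.

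To describe how these sites changed after LPS, peaks of both tables that overlapped reciprocally by at least 50% were fitted together. The rule for members did not use this contrast as such. The libraries are the same, though, and members were chosen for more tags in CD45.1 than in CD45.2. The LPS changes are therefore not free of that choice, least of all where a peak was called in 1 table only. Of the member peaks 76 could be matched and fitted, of which 28 were called higher in CD45.1 in both tables, 15 in the untreated table alone and 2 in the LPS table alone. Counts are normalized over all 12 libraries and differ in scale from those above. In CD45.1, DESeq2 called 13 of the 76 higher and 3 lower after LPS (adjusted p under 0.05 and more than 2-fold), beside 6.78% higher and 4.93% lower of all 39235 matched peaks. In CD45.2 it called 10 higher and 1 lower, beside 7.69% and 3.69%. In CD45.1 the members had a median log2 change of 0.48, against 0.0 over all peaks, and in CD45.2 a median of 0.8, against −0.01. At the 45 member peaks called higher in CD45.1 in either table the medians were 0.46 in CD45.1 and 1.04 in CD45.2. At the 31 not called they were 0.51 and 0.29. The part of the choice of peaks with few CD45.2 tags in the CD45.2 median was not tested.

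At Trps1 7 of 20 matched peaks rose in CD45.2, and 3 of these rose in CD45.1 too. At the intron peak at +191.1 kb, CD45.2 held 12.0, 9.75 and 20.3 normalized tags in untreated mice 4, 5 and 6 and 49.2, 53.1 and 42.4 in LPS mice 1, 2 and 3 (log2 change 1.76, SE 0.30, DESeq2 adjusted p 2e-07). In CD45.1 the same peak went from 57.3, 62.5 and 66.3 to 75.6, 99.1 and 94.4 (0.53, SE 0.23, adjusted p 0.093). The interaction term, which tests whether the changes differ, did not pass (−1.23, SE 0.38, adjusted p 0.16). At +48.4 kb CD45.2 went from 7.07, 5.01 and 15.1 to 59.3, 31.6 and 34.1 tags (2.09, SE 0.37, adjusted p 9.8e-07), with no overlap. Close to the start site, at +0.4 kb, CD45.2 went from 27.2, 20.8 and 23.9 to 65.6, 53.1 and 35.9 (1.04, SE 0.27, adjusted p 0.0015). That change was just past 2-fold and came to 0.88, 0.97 and 0.95 without CD45.2 of mice 1, 2 and 5 in turn. A peak at +68.7 kb rose by 1.03 (SE 0.29, adjusted p 0.0048) and was not called without CD45.2 of mouse 1 (0.76), 2 (0.97), 4 (0.99) or 5 (0.86).

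The Trps1 peaks called in both populations lay at +109.2, +185.0 and +190.7 kb. At +109.2 kb, printed above with its CEBP match, CD45.1 went from 28.3, 29.1 and 27.6 to 41.6, 72.9 and 73.4 tags (log2 change 1.13, SE 0.31, DESeq2 adjusted p 0.0034). CD45.2 went from 2.18, 1.58 and 4.12 to 17.7, 6.95 and 13.6 (2.16, SE 0.55, adjusted p 0.0013). Neither pair of groups overlapped. The peak at +190.7 kb rose by 1.42 (SE 0.41, adjusted p 0.0052) in CD45.1 and 2.13 (SE 0.56, adjusted p 0.0018) in CD45.2, and that at +185.0 kb by 1.43 (SE 0.41, adjusted p 0.0051) and 2.08 (SE 0.74, adjusted p 0.035). In CD45.1 these calls rested on single libraries. Without mouse 2 the change was 1.01 at +109.2 kb (adjusted p 0.051) and 1.25 at +190.7 kb (0.065), and without mouse 3 it was 1.0 (0.058) and 1.28 (0.062), and 1.1 (0.13) at +185.0 kb. In CD45.2 the +185.0 kb call was lost without mouse 1 (2.01, adjusted p 0.067), 3 (1.97, 0.12), 5 (1.35, 0.3) or 6 (3.13, 0.052).

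At Mdfic 5 of 15 matched peaks rose in CD45.1 and 1 of them also in CD45.2. At +38.0 kb, the peak with the PU.1 and AP-1 matches, CD45.1 went from 73.8, 82.1 and 70.2 to 158, 178 and 133 tags (log2 change 1.05, SE 0.20, DESeq2 adjusted p 1.2e-05). CD45.2 went from 3.26, 2.90 and 1.10 to 15.1, 12.6 and 17.5 (2.69, SE 0.53, adjusted p 1.2e-05). The groups did not overlap in either population, and the CD45.2 libraries after LPS stayed below every untreated CD45.1 library. At +6.0 kb, also with an AP-1 match, CD45.1 went from 10.6, 5.82 and 15.4 to 26.4, 47.6 and 74.8 (2.19, SE 0.44, adjusted p 2.1e-05), and CD45.2 from 1.09, 1.58 and 2.20 to 2.52, 7.58 and 7.00 (1.87, SE 0.74, adjusted p 0.062). The interaction did not pass there either (0.32, SE 0.86, adjusted p 0.99). Without CD45.1 of mouse 2 the change at +38.0 kb in CD45.1 was 0.96, just under 2-fold. The other Mdfic peaks that rose in CD45.1 lay at +73.1 kb (1.85, SE 0.53, adjusted p 0.0049), −5.5 kb (1.13, SE 0.40, adjusted p 0.028) and +121.4 kb (1.08, SE 0.37, adjusted p 0.023). The −5.5 kb call was lost without CD45.1 of mouse 2 (1.26, adjusted p 0.052), 3 (0.77, 0.32), 4 (1.12, 0.093) or 6 (0.98, 0.099), and that at +121.4 kb without mouse 2 (0.84, 0.19) or 4 (0.86, 0.14).

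Cmah was the locus with peaks that fell in CD45.1, 2 of 5 matched. At −21.9 kb, printed above, CD45.1 went from 31.4, 35.5 and 30.8 to 11.1, 10.7 and 4.20 tags (log2 change −1.83, SE 0.50, DESeq2 adjusted p 0.0032), while CD45.2 held at most 2.52 in any library. At −34.2 kb CD45.1 went from 16.8, 26.0 and 22.6 to 11.7, 2.92 and 4.90 (−1.55, SE 0.59, adjusted p 0.045). At neither peak did the CD45.1 groups overlap. The counted windows were narrower after LPS, 125 against 138 bases at −21.9 kb and 125 against 191 at −34.2 kb. Without CD45.1 of mouse 3 the change at −21.9 kb was −1.47 (adjusted p 0.057). The −34.2 kb call was lost without CD45.1 of mouse 2 (−1.31, adjusted p 0.18) or 6 (−1.52, 0.11) or CD45.2 of mouse 5 (−1.56, 0.057) or 6 (−1.56, 0.054), which enter through the shared estimate of spread. At C630043F03Rik +178.4 kb, CD45.1 fell from 37.3, 53.3 and 49.8 to 12.3, 7.77 and 16.8 (−1.92, SE 0.43, adjusted p 0.00021), whereas at +31.1 kb it rose from 6.85, 8.57 and 9.32 to 18.2, 32.1 and 25.2 (1.58, SE 0.50, adjusted p 0.013). Both directions thus occurred at 1 locus, but the counted windows changed in the same directions. The window went from 185 to 125 bases at +178.4 kb and from 99 to 183 at +31.1 kb. At Gm9733 +56.2 kb CD45.1 rose from 26.1, 27.2 and 22.6 to 46.9, 76.8 and 56.7 (1.22, SE 0.32, adjusted p 0.0019). The +31.1 kb call was lost without CD45.1 of mouse 4 (1.47, adjusted p 0.072) and the Gm9733 call without CD45.1 of mouse 2 (1.02, 0.059). In CD45.2 the C630043F03Rik peak at +224.3 kb rose by 1.30 (SE 0.40, adjusted p 0.01), but not without mouse 3 (1.24, adjusted p 0.066) or 5 (1.27, 0.059). No matched peak of Dach1 (6), Hs3st1 (2), Stap1 (3) or Col19a1 (1) was called in either population.

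At G530011O06Rik 3 of 12 matched peaks rose in CD45.1. At −12.3 kb CD45.1 went from 50.1, 44.7 and 49.4 to 125, 140 and 138 tags (log2 change 1.48, SE 0.23, DESeq2 adjusted p 6.5e-09), and at −18.3 kb from 68.5, 41.9 and 68.4 to 127, 131 and 148 (1.19, SE 0.24, adjusted p 3.7e-05). CD45.2 stayed at or below 5.25 in all libraries at both. The third, at −233.3 kb, rose in both populations and is the peak with 321 near-identical copies. Its call in CD45.2 was lost without mouse 1 (1.21, adjusted p 0.097), 5 (1.27, 0.1) or 6 (adjusted p 0.12). Without CD45.1 of mouse 5 the change at −18.3 kb was 0.98. The peak at −19.3 kb was the 1 member peak with an interaction of origin and LPS, beside 0.245% of all matched peaks. CD45.1 held 142, 134 and 165 tags before and 130, 180 and 129 after LPS (−0.02, SE 0.19, adjusted p 0.95), and CD45.2 fell from 25, 22.7 and 22.8 to 2.52, 7.58 and 3.50 (−2.31, SE 0.49, adjusted p 5.9e-05). The interaction was 2.28 (SE 0.52, adjusted p 0.0068), and without CD45.2 of mouse 3 it was 1.98 (adjusted p 0.35).

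**Figure D5:**
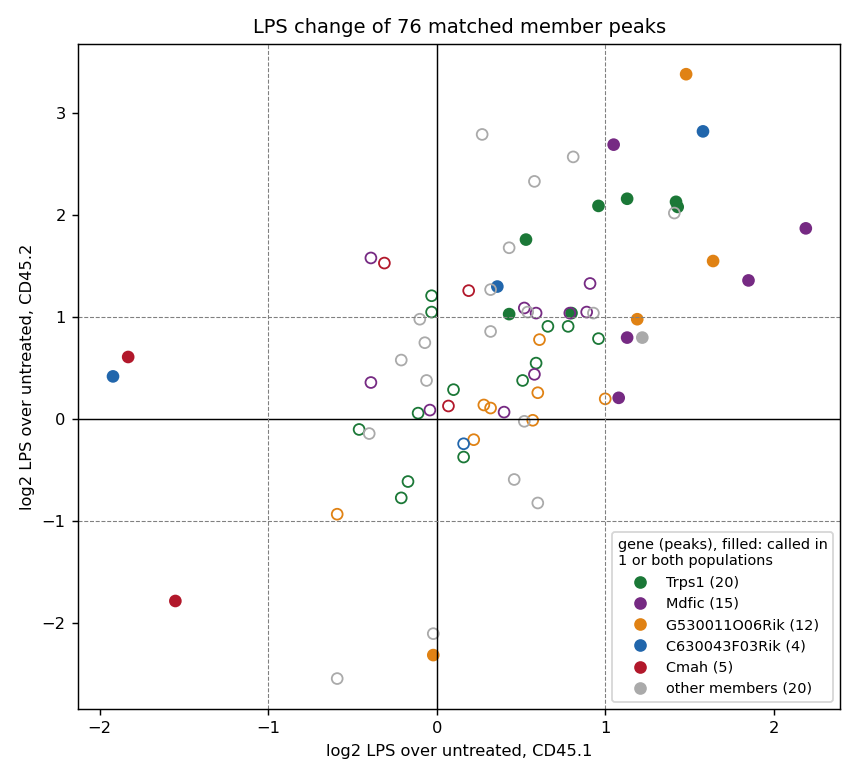
Log2 change after LPS in CD45.1 (horizontal) and CD45.2 (vertical) of the 76 matched member peaks, coloured by locus, filled where called in either population, with dashed lines at 2-fold. Most points lie above 0 on both axes, and the filled Cmah and C630043F03Rik points at the left are those that fell in CD45.1.

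The windows over which tags were counted differ between the tables, because the authors merged peaks separately for each treatment. Over all matched peaks 78.1% were wider after LPS (median 143 against 174 bases). Of the member peaks that rose in CD45.1, 10 of 13 were wider after LPS, and of those that fell 0 of 3. For CD45.2 these were 7 of 10 and 0 of 1. With the width as an offset, an alternative added after the data had been seen, 11 member peaks rose and 1 fell in CD45.1 and 9 rose and 1 fell in CD45.2. Treatment and table cannot be told apart otherwise.

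Summed per gene over its matched peaks, 3 of the 10 members rose in CD45.1 and 3 in CD45.2 (DESeq2, adjusted p under 0.05), beside 15.6% and 10.4% of 14676 genes. No member fell, beside 11.9% and 4.98% of genes. The sum at Mdfic went from 366, 414 and 336 to 571, 665 and 662 tags in CD45.1 (log2 change 0.76, SE 0.14, adjusted p 2.9e-06). In CD45.2 it went from 159, 127 and 148 to 264, 190 and 173 (0.5, SE 0.16, adjusted p 0.017). Trps1 rose by 0.47 (SE 0.16, adjusted p 0.018) in CD45.1 and 0.64 (SE 0.17, adjusted p 0.0021) in CD45.2. G530011O06Rik rose by 0.5 (SE 0.13, adjusted p 0.0011) in CD45.1, and C630043F03Rik, with 9.53 to 11.5 tags before and 15.7 to 26.7 after, by 1.06 (SE 0.34, adjusted p 0.016) in CD45.2. Cmah had a log2 change of −0.49 (SE 0.22, adjusted p 0.075) in CD45.1. The Trps1 sum in CD45.1 was not called without CD45.1 of mouse 2 (0.42, adjusted p 0.088), 3 (0.37, 0.14), 4 (0.48, 0.052) or 6 (0.42, 0.088). In CD45.2 the Mdfic sum was not called without mouse 1 (0.34, adjusted p 0.16), 5 (0.41, 0.16) or 6 (0.52, 0.057), nor the C630043F03Rik sum without mouse 3 (0.82, 0.19), 5 (0.99, 0.1) or 6 (1.12, 0.054). No member had an interaction at the level of its sum, beside 0.191% of genes, with 910 genes at an unadjusted p under 0.05 and 0 members by edgeR as well. Scaling to total tags left none of these sums called (adjusted p from 0.11 to 0.62 for those named). With an overlap of at least 80% the Mdfic sum in CD45.1 was not called (0.36, adjusted p 0.18) and the Stap1 sum in CD45.1, with 0.44 (adjusted p 0.11) at 50%, was called (0.9, adjusted p 0.011), as it was without CD45.1 of mouse 6 (0.65, adjusted p 0.026).

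Motifs of 9 factors were searched on both strands in the 200 bases around each peak's centre, as a description of the letters present. In untreated mice TGANTCA (AP-1) was present in 20.0% (13) of the 65 called member peaks, 1.85% (1 of 54) of the other member peaks and 8.11% of all peaks. The motif TGTGGTT (RUNX) was present in 12.3%, 1.85% and 5.65%, and TTGCNNAA (CEBP) in 16.9%, 18.5% and 9.82%. The Wilson 95% interval for AP-1 in the called peaks ran from 12.1% to 31.3%, and for RUNX from 6.37% to 22.5%. After LPS AP-1 was present in 31.2% of the 48 called peaks (19.9% to 45.3%), against 12.4% and 13.4%. In 400 bases the untreated shares were 27.7%, 11.1% and 12.7% for AP-1 and 16.9%, 11.1% and 9.55% for RUNX. After LPS the shares in 200 bases were 10.4%, 6.74% and 5.82% for RUNX and 25%, 16.9% and 12.2% for CEBP. The MEF2 letters CTANNNNTA were present in 23.1%, 9.26% and 13.9% of the same untreated classes and in 16.7%, 19.1% and 13.3% after LPS. For MAF (TGCTGA) the untreated shares were 23.1%, 14.8% and 18%, and after LPS 12.5%, 21.3% and 17.9%. For GATA factors (AGATAA) they were 13.8%, 11.1% and 5.64%, and after LPS 4.17%, 13.5% and 5.52%. The shares of called and other member peaks for MEF2, MAF and GATA had the opposite order after LPS, and the difference was not tested. The IRF letters GAAANNGAA were present in 10.8% of called untreated peaks and 8.33% of all peaks, and after LPS in 16.7% and 7.54%. The PU.1 letters GAGGAAGT were present in 9.23% and 9.45%, and after LPS in 4.17% and 8.72%. NF-kappaB (GGANTTTCC) was the rarest, at 1.54% and 1.01%, and after LPS at 2.08% and 1.25%. The called member peaks were poorer in GC, with a median of 42.5% against 52.0% over all peaks, and the part of base composition in these shares was not tested.

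Of 69 genes in the families of Hs3st1, Cmah, Trps1, Dach1, Stap1, Mdfic and Col19a1, 255 untreated peaks were fitted, of which 7 (2.75%) were called higher in CD45.1 and 13 (5.1%) higher in CD45.2, beside 3.78% and 2.65% of all peaks. After LPS these were 6 (2.59%) and 9 (3.88%) of 232, beside 1.78% and 1.19%. Among them the sialyltransferase gene St6gal1 was higher in CD45.1 at +17.2 kb (56.4, 33.8 and 49.6 against 8.19, 10.1 and 15.0 tags), as were peaks of St8sia4, whereas St3gal5 was higher in CD45.2 at +10.4 kb (7.00, 6.39 and 5.45 against 29.5, 28.6 and 22.7). In the family of Dach1, Eya1 was higher in CD45.1 at +166.2 kb (17.3, 15.5 and 22.3 against 1.64, 2.32 and 4.06), and Eya4 was higher in CD45.2, with 8.40, 8.21 and 5.99 against 53.3, 53.8 and 55.6 tags at +169.7 kb. Hs3st2, in the family of Hs3st1, was also higher in CD45.2 at −59.1 kb (4.66, 4.11 and 3.27 against 38.5, 50.7 and 51.1), and so was Zfpm2, which encodes a partner of GATA factors, at +299.9 kb (0, 1.83 and 2.72 against 74.6, 48.8 and 61.3).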

How the data were processed

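Chromatin accessibility was measured by ATAC-seq in 12 libraries. Per the labels, the authors used bcl2fastq 2.17.1.14, Bowtie2, Picard 1.108 and HOMER on mm9. The deposited merged tables, 1 per treatment, hold tags per merged peak, unnormalized and in steps of 0.5, which were taken to be estimated counts and rounded. The deposited peak list of each library holds a HOMER score (tags at the peak) and a ratio, the fold over the local region. These lists were used to see in which libraries a peak was found.

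DESeq2 1.42.0 (R 4.3.3, Wald test, Benjamini-Hochberg adjustment, median-of-ratios scaling) was fitted to every peak where some library exceeded a count of 10. Origin was called at adjusted p under 0.01 and over 4-fold within each table. LPS changes (adjusted p under 0.05, over 2-fold) and the interaction (adjusted p under 0.05) were fitted on matched peaks and on their sums per gene. A reciprocal overlap of 50% matched 39390 peaks one to one, of which 39235 passed the count limit. Sequences for the motif and copy searches were cut from mm9 with bedtools 2.31.1. The fits were tested on simulated counts. Near-identical copies (95% identity over 90% of the peak) and shared sequence came from blastn 2.17.0. Gene positions came from GENCODE on mm9. Shares carry Wilson intervals of 95% that cover counting error only, as do ratios and the floor of 3 tags.

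Named peaks were those nearest the start site, with the most tags or with the smallest adjusted p at each locus, and those past the LPS thresholds; others named for position or for the absence of CD45.2 tags were picked after their values were seen. Members and lists were chosen with earlier results of these data known. Per the series' design text both populations were sorted from the same animal, so same-numbered libraries were taken as 1 mouse, and their deviations from the group means correlated at 0.138, 0.062 and 0.0763 in untreated mice 4, 5 and 6 and at −0.191, 0.0687 and 0.088 in LPS mice 1, 2 and 3. The main fits took both libraries of a mouse as independent, so their p-values leave out this pairing. With 3 mice per group, they measure the spread between the libraries of these animals. Alternatives were edgeR 4.0.16, scaling by total tags, other filters, overlaps and motif windows, the mouse as a block and leaving out each library.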

Additional observations from a re-analysis of the deposited data

Results flagged for a closer look

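The G530011O06Rik peak at −19.3 kb drew attention because the LPS change differed between the populations by the interaction term (2.28 on the log2 scale, SE 0.52, DESeq2 adjusted p 0.0068). CD45.2 fell from 25, 22.7 and 22.8 to 2.52, 7.58 and 3.50 normalized tags, and CD45.1 held 142, 134 and 165 before and 130, 180 and 129 after LPS. The counted window was 296 bases wide before and 202 bases wide after LPS, as the tables were merged separately. With the width as an offset the interaction was 2.28 (DESeq2 adjusted p 0.0073). That offset is the same for both populations and cancels in the interaction, so the fit cannot show what part the window had. The LPS window has 1 near-identical copy (96.757% identity), and its part in the difference was not tested.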

How the results depend on the processing

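Counts of called member peaks held within 1.5 times of 65 (untreated) and 48 (LPS) for origin with edgeR (65 and 55), total-tag scaling (63 and 52), no filter (65 and 48) and a 2-fold limit (76 and 54), but a mean count of at least 20 left 26 and 13. Total-tag scaling gave 9 peaks changed by LPS in CD45.1 (of 16), 7 in CD45.2 (of 11), 0 interactions and 0 and 0 gene sums. An overlap of at least 80% gave 2, 5 and 0 peaks, with fewer peaks matched, and turned the C630043F03Rik sum in CD45.2 to −0.13. A mean count of at least 20 gave 7 in CD45.1. The cause was not tested for the scaling.

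Leaving out 1 library gave 49 to 64 and 23 to 39 origin calls, 8 to 17 and 6 to 12 LPS calls, 0 to 2 interactions and 2 to 4, 1 to 3 and 0 to 0 gene sums. Calls moved by over 1.5 times for origin after LPS without mouse 3 (28 without its CD45.1 library, 23 without its CD45.2 library) or the CD45.2 library of mouse 2 (23), for LPS in CD45.1 without CD45.1 of mouse 2 (8) or 3 (9), for LPS in CD45.2 without CD45.2 of mouse 5 (6), for the interaction without CD45.2 of mouse 3 (0) or 6 (2), and for sums in CD45.2 without CD45.2 of mouse 5 or 6 (1 each). The Trps1 sum in CD45.1 was lost without CD45.1 of mouse 2, 3, 4 or 6. In CD45.1 the Cmah sum passed with edgeR (−0.48, adjusted p 0.0397) and without CD45.1 of mouse 1 (−0.67, adjusted p 0.0323). With the mouse as a replicate block, 57 and 34 origin calls, 1 interaction and 0 gene sums with an interaction were found, so the block changed no call count by over 1.5 times among members. LPS within a population cannot be blocked, since each mouse had 1 treatment. Added after seeing the data, leaving out peaks with near-identical copies gave 61, 44, 13, 10 and 1. For matched peaks the copies were those of the untreated window. The G530011O06Rik peak at −19.3 kb, the member peak with an interaction, therefore stayed in, though its LPS window has 1 near-identical copy.

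Over all matched peaks total-tag scaling called 2620 in CD45.1 (main 4598), 2751 in CD45.2 (4463) and 16 interactions (96), and 411 (4041), 263 (2259) and 1 (28) gene sums. The share called higher moved from 57.9% to 69.7% for peaks in CD45.1 and from 56.6% to 78.6% and 67.6% to 79.1% for sums in CD45.1 and CD45.2. It shifted the median log2 value of all peaks to 0.14 for origin after LPS and −0.15 for LPS in CD45.2. A mean count of at least 20 left 1127 (3804) and 283 (1459) origin calls, and the 80% overlap 1084, 988 and 37 peaks and 1680 and 922 sums. The block left 879 origin calls after LPS, 51 interactions and 6 for sums. In windows of 400 bases the shares of called member peaks and of all peaks in untreated mice were 23.1% and 14.4% (IRF), 47.7% and 27.9% (MEF2) and 27.7% and 13.8% (GATA). After LPS they were 35.4% and 27.3% (MEF2), 16.7% and 13.5% (GATA) and 27.1% and 29.5% (MAF). Longer windows can hold more matches, and the part of window length in these shares was not tested. Depth limits the LPS table, where 27 of 137 member peaks could not be fitted.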
